A study of Mus musculus with 11 samples.

Results

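The genes of γ-aminobutyric acid (GABA) signalling were examined for DNA methylation in mouse pancreas at birth. The set held 7 genes, namely Gad1, Gad2, Slc32a1, Abat, Gabbr1, Gabbr2 and Gabra4, out of 25802 genes measured. Their rows were found by gene symbol. All 7 had a row in the table of genes, and 6 of them, all but Gad1, had a row among the 24391 promoters. In addition, 11 of 14841 CpG islands and 105 of 259716 tiles of 5000 bp overlapped these promoters or genes. Rows of different classes that cover the same bases share reads, and are therefore not independent measurements.

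The pancreata came from 11 wild-type C57BL/6N mice at postnatal day 0. Pregnant dams were given amphetamine at 10 mg/kg or saline on embryonic days 14.5, 15.5 and 16.5. Of the offspring, 5 were exposed to amphetamine (3 females and 2 males) and 6 were saline controls (3 females and 3 males), so that the same animals made up 6 females and 5 males. Each dam received drug or saline, and the litter of each mouse was not given, so that mice of a group may be littermates. Reduced representation bisulfite sequencing (RRBS) was used, where DNA is cut at MspI and TaqI sites and the share of methylated cytosines is read at the CpGs near them. The values below are the deposited mean, lowest mouse and highest mouse of each group, as percentages.

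GABA is made from glutamate by the glutamate decarboxylases encoded by Gad1 and Gad2. It is loaded into vesicles by the transporter encoded by Slc32a1 and broken down by GABA transaminase, the product of Abat. Gabbr1 and Gabbr2 encode the subunits of the G protein-coupled GABA-B receptor, whereas Gabra4 encodes an α subunit of the GABA-A receptor, a chloride channel. Outside the brain, pancreatic β cells contain GABA and islet cells carry both classes of receptor. CpG-rich promoters are usually unmethylated whether or not their gene is active, while the bodies of genes are mostly methylated.

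RRBS sees only CpGs close to a cut site, and the upstream sequence of each gene shows where those sites lie. RefSeq promoter windows on GRCm38.p6 matched 6 of the 7 genes, and Abat had no match. Each run below ends at the RefSeq start or, where an annotated exon begins earlier, just before that exon. Capitals mark CCGG, the MspI site, and TCGA, the TaqI site, both of which read the same on either strand.
Gad2 promoter, chr2:22622077-22622204, plus strand: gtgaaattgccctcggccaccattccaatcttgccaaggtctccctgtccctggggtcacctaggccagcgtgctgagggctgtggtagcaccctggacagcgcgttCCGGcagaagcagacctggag
Gad1 promoter, chr2:70561879-70562041, plus strand: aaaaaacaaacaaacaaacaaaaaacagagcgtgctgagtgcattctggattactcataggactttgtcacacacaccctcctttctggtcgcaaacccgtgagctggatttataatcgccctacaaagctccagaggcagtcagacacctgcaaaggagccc
Slc32a1 promoter, chr2:158610508-158610757, plus strand: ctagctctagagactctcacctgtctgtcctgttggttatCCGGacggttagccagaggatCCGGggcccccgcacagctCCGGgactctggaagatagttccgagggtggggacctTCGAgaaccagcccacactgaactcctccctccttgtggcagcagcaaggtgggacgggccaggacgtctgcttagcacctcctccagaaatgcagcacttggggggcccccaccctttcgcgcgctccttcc
Gabbr1 promoter, chr17:37045716-37045965, plus strand: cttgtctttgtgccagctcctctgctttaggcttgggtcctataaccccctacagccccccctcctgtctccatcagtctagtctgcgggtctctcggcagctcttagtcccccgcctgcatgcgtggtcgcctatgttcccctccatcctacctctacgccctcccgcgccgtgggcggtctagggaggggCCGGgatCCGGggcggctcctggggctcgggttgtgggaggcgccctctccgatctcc
Gabbr2 promoter, chr4:46991874-46991964, minus strand: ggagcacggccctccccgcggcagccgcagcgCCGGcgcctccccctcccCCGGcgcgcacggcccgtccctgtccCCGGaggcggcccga
Gabra4 promoter, chr5:71658309-71658558, minus strand: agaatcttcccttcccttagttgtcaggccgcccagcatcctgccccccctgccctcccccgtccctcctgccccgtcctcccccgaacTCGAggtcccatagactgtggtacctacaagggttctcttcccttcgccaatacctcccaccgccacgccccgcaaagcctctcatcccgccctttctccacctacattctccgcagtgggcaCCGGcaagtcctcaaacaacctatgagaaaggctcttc
The 250 bases before the start of Slc32a1 held 3 CCGG sites and 1 TCGA site, whereas those of Gabbr1 held 2 CCGG sites and those of Gabra4 held 1 of each. A run of only 91 bases at Gabbr2 held 3 CCGG sites. The 163 bases at Gad1 held none, and the 128 bases at Gad2 held 1 CCGG site. Among all 32851 RefSeq windows of 250 bases, 47.0% held CCGG and 18.5% held TCGA.

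Over the full 2000 bp promoter rows, the count of cut sites differed widely between the genes. Gabbr2 had 20 CCGG and 3 TCGA sites and Gabbr1 had 18 and 1, against a median of 8 sites of either kind over all 24391 promoters. Gad2 had 5 and 3, Slc32a1 had 9 and 2, Abat had 7 and 0, and Gabra4 had 4 and 3. The corresponding window at the start of the Gad1 row, which has no promoter row, held 1 CCGG and 2 TCGA sites. That row begins at an upstream start, and the RefSeq start of Gad1 lies 9.06 kb further in, within the gene's CpG island.

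At the promoters, methylation was low in both treatment groups. In 5 of 6 the mean was under 5% in each group, and only Gad2 had more. Averaged over all mice, Gad2 stood at 12.0%, Slc32a1 at 3.57%, Gabbr1 at 2.37%, Abat at 1.84%, Gabbr2 at 1.38% and Gabra4 at 1.13%, and the median over all promoters was 8.31%. None of the 6 promoters passed an adjusted p-value of 0.05 between amphetamine and control mice (limma, two-sided, Benjamini-Hochberg adjusted), where 0.0164% of all 24360 promoters tested did. None had an unadjusted p-value under 0.05 either, against 4.11% of all promoters. The group ranges overlapped at all 6, while they were apart at 0.395% of the promoters with reads in every mouse.

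Gad2, encoding the decarboxylase that sits on vesicle membranes, had the most variable promoter. In amphetamine-exposed mice it ranged from 0% to 27.2% with a mean of 10.6%, and in controls from 2.78% to 33.7% with a mean of 13.2%. Both groups thus held mice with little or no methylation and a mouse above 25%. The difference was -2.58 percentage points (95% interval -17.4 to 12.2, adjusted p = 0.990), and its sign turned without the highest control mouse, to 1.53 points. Mean coverage, read here as reads summed over the CpGs of a region, was 217.8 in the exposed and 168.8 in the control group.

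The promoter of Slc32a1, the vesicular GABA transporter, ranged from 0% to 4.68% in exposed mice (mean 1.91%) and from 0.556% to 10.9% in controls (mean 4.96%). The groups overlapped below 5%, and the mice above that were controls. The difference was -3.04 points (95% interval -7.23 to 1.15, adjusted p = 0.958), with a mean coverage of 199.4 and 112.7.

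Abat had the opposite order. Its promoter ranged from 0% to 7.51% in exposed mice (mean 3.12%) and from 0% to 2.56% in controls (mean 0.776%). Mice without any methylated reads were present in both groups, and the highest value was that of an exposed female. The difference was 2.35 points (95% interval -0.385 to 5.08, adjusted p = 0.958), at nearly equal coverage (266.0 and 263.7). Without the highest exposed mouse it was 1.25 points.

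Among the receptor genes, the Gabbr1 promoter ranged from 1.75% to 4.90% in exposed mice (mean 3.23%) and from 0.926% to 3.85% in controls (mean 1.65%). The difference of 1.58 points had a 95% interval of -0.0980 to 3.26 (adjusted p = 0.958), and coverage differed too, at 372.6 in exposed mice and 209.3 in controls. Its part in the difference was not tested. Gabbr2, the partner subunit, ranged from 0% to 2.60% in the exposed (mean 1.18%) and from 0.848% to 3.51% in the controls (mean 1.55%). Gabra4 ranged from 0% to 3.59% (mean 1.58%) and from 0% to 4.04% (mean 0.759%). For both of these genes the interval of the difference stayed within 3 points of zero on either side, from -1.98 to 1.25 for Gabbr2 and from -1.32 to 2.96 for Gabra4.

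**Figure D1:**
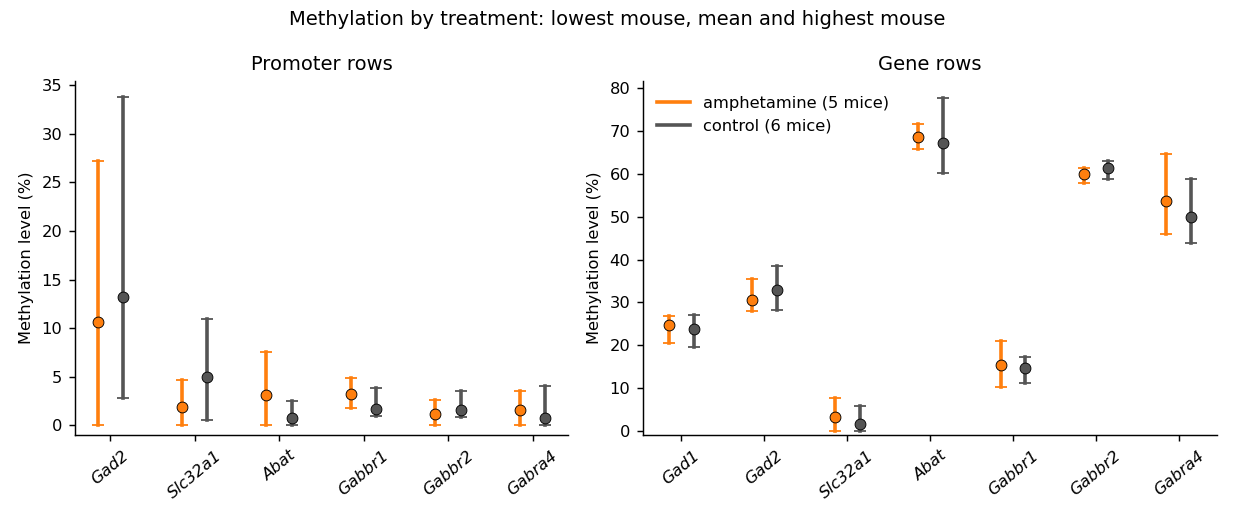
Methylation level in percent at the 6 promoter rows (left) and 7 gene rows (right) in amphetamine-exposed mice (orange, 5 mice) and controls (grey, 6 mice). Points are group means and bars run from the lowest to the highest mouse; the bars overlap at every gene, and among promoters only Gad2 reached above 11% in any mouse.

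Over whole genes, the members spread from almost unmethylated to largely methylated. In control mice, Slc32a1, a short gene with CpG islands at its start and near its end, was at 1.67%. Gabbr1 was at 14.7%, Gad1 at 23.8%, Gad2 at 32.9%, Gabra4 at 49.9%, Gabbr2 at 61.3% and Abat at 67.3%. The amphetamine group held the same order, at 3.29%, 15.5%, 24.8%, 30.6%, 53.7%, 59.9% and 68.7%. In controls, neighbours in this order were apart in every mouse, with Gabra4 (43.9% to 58.9%) just short of Gabbr2 (58.9% to 63.0%), except that Gabbr2 overlapped with Abat (60.3% to 77.8%). In exposed mice the ranges overlapped between Gabbr1 (10.3% to 21.0%) and Gad1 (20.6% to 26.7%) and between Gabra4 (45.8% to 64.6%) and Gabbr2 (57.9% to 61.4%). The median over all genes was 53.0%, averaged over all mice.

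No difference was called at the gene rows between amphetamine and control mice. None of the 7 passed an adjusted p-value of 0.05 (0.0116% of all 25779 genes tested) or an unadjusted p-value under 0.05 (4.38% of all genes), and none had groups that did not overlap (0.312% of genes with reads in every mouse). The 7 differences lay between -2.29 points (Gad2) and 3.80 points (Gabra4), with 5 higher and 2 lower in the exposed group and a median absolute difference of 1.37 points, against 2.41 over all genes. Their smallest adjusted p-value was 0.984. Each of the 7 had more coverage than the median over all genes, which was 445.4 in exposed and 359.25 in control mice. The part of depth in the size of these differences was not tested. With 1 mouse left out, Gad2 ran from -3.48 to -1.18 points and Gabra4 from 1.06 to 5.76 points.

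The precision of these gene rows varied. Gabbr2 was the most tightly measured, with 57.9% to 61.4% in exposed mice and 58.9% to 63.0% in controls, and its difference of -1.32 points had a 95% interval of -3.78 to 1.14 at a mean coverage of 9173 and 7573. Gabra4 was the least, with 45.8% to 64.6% against 43.9% to 58.9%, an interval of -5.66 to 13.3 points and a coverage of 779.0 and 542.5. In the synthesis genes, Gad1 differed by 0.944 points (-2.81 to 4.69) and Gad2 by -2.29 points (-7.20 to 2.62). Abat, the degrading enzyme, differed by 1.37 points (-4.94 to 7.68), with both its lowest and its highest mouse among the controls.

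Methylation was also low at the CpG islands. Of 11 islands, 8 had means under 5% in both treatment groups. The island inside Gad1 (chr2:70562045-70564007, at the RefSeq start) ranged from 0% to 6.33% in exposed mice and from 0% to 9.09% in controls, with means of 2.23% and 2.95%. The Gad2 island (chr2:22622178-22623876), which covers only the downstream end of the promoter row, was at 3.36% and 1.39%. The promoter spread of Gad2 was therefore wider than that of its island, where no mouse exceeded 9.36%. At the 3 Slc32a1 islands, the one upstream of the gene (chr2:158609780-158610151) ranged from 0% to 7.74% in exposed mice and from 0% to 20.2% in controls (means 2.84% and 9.03%). The other two had means under 2% in each group, and one of them, over the start, had reads in only 3 exposed and 5 control mice.

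The Abat island (chr16:8513266-8513607) ranged from 0% to 7.70% in exposed mice (mean 3.53%) and from 0% to 2.78% in controls (mean 0.904%). It gave a difference of 2.63 points (95% interval -0.0857 to 5.34, adjusted p = 0.923). Gabbr1 has an island just after its start and another further in, at 4.57% and 7.59% in exposed mice and 2.72% and 6.48% in controls. At Gabbr2 the start island (chr4:46991020-46992185) was at 1.21% and 1.71%, with a coverage of 976.4 and 778.7. A small island at the far end of the gene, with a coverage of 41.0 and 19.3, was at 7.15% and 13.3%. It had reads in only 4 exposed and 5 control mice, which ran from 0% to 28.6% and from 0% to 33.3%. Gabra4 was at 1.28% and 1.04%. None of the 11 islands passed an adjusted p-value of 0.05 between treatments (0.0135% of all 14829 islands tested) or an unadjusted p-value under 0.05 (4.10%), and none of the 9 with reads in every mouse had groups apart (0.443%).

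**Figure D2:**
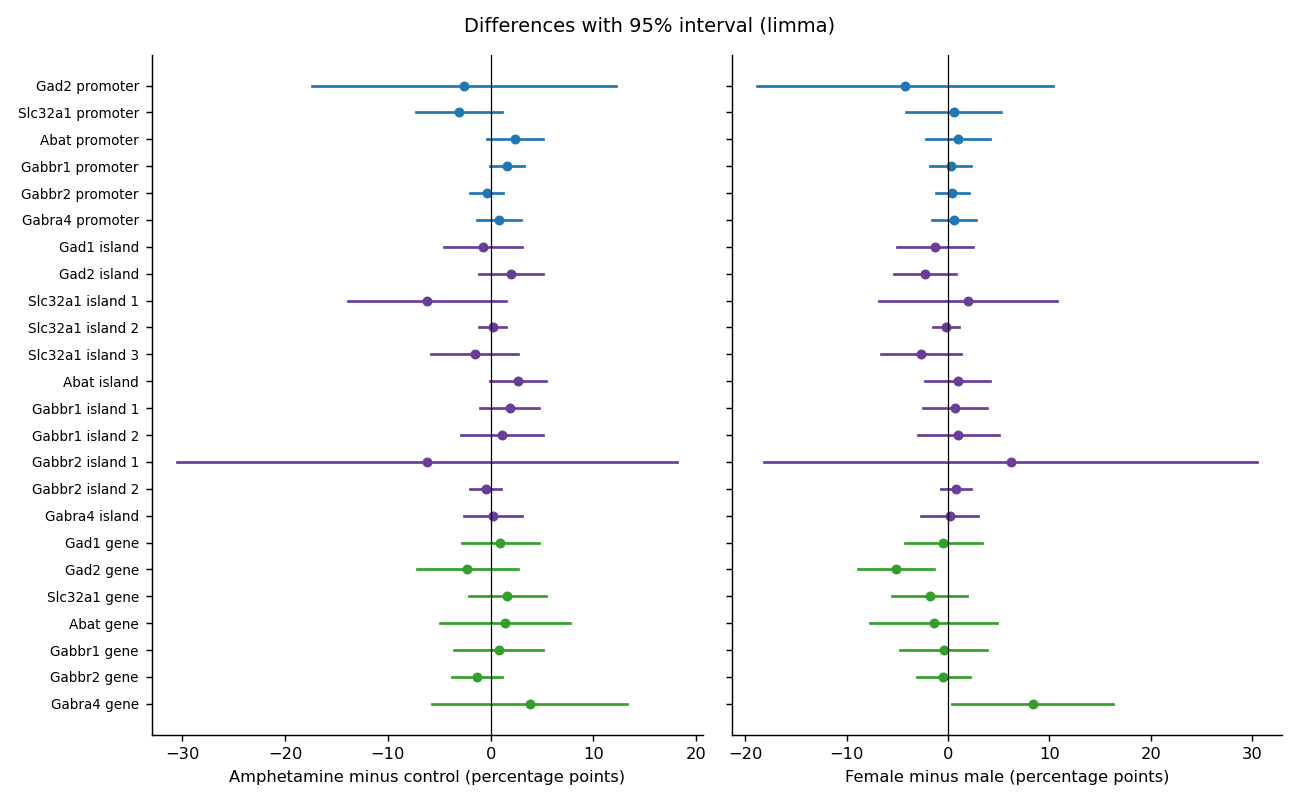
Differences in percentage points with 95% intervals from limma for the 6 promoters (blue), 11 CpG islands (purple, numbered along the chromosome) and 7 genes (green), amphetamine minus control on the left and female minus male on the right. Every treatment interval included 0; between the sexes, the gene rows of Gad2 (-8.85 to -1.37) and Gabra4 (0.437 to 16.3) lay to one side of it before adjustment.

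The tiles traced methylation along each gene. Of the 105 tiles, 49 overlapped an exon of their gene and 55 lay within an intron. The 10 tiles holding a CpG island had a median of 5.25% in controls and 4.61% in exposed mice, and the 95 others had 78.9% and 77.3%. The same split over all tiles of the genome gave 6.71% and 84.6% in controls. Of the 7 tiles over a gene start, 6 were under 20% in both groups. Gabra4 had the highest of these, with 17.1% in exposed mice and 16.1% in controls.

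Gad1 was low over more than its island. Its tiles centred 4.4, 9.4 and 14.4 kb after the start of the row were at 20.5%, 3.85% and 6.66% in exposed mice and 16.8%, 5.21% and 8.53% in controls, and only the middle one holds an island. From 19.4 kb onward every Gad1 tile was above 60% in both groups. The tile over the start of the row had reads in 3 exposed and 4 control mice at a coverage of 9.80 and 6.17, and its means of 0% and 50.0% rest on that. Slc32a1 was low along the gene, with 4.09% and 2.86% over the gene and 2.51% and 3.41% in the tile at its end. Its upstream tile (chr2:158605001-158610000), outside the gene, was at 16.7% and 35.0%. That tile had reads in 3 exposed and 5 control mice at a coverage of 8.6 and 7.5, and controls ran from 0% to 100%. In Gabbr2, the start tile was at 2.33% and 3.55%, and the next one inward was at 57.8% and 41.8%.

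**Figure D3:**
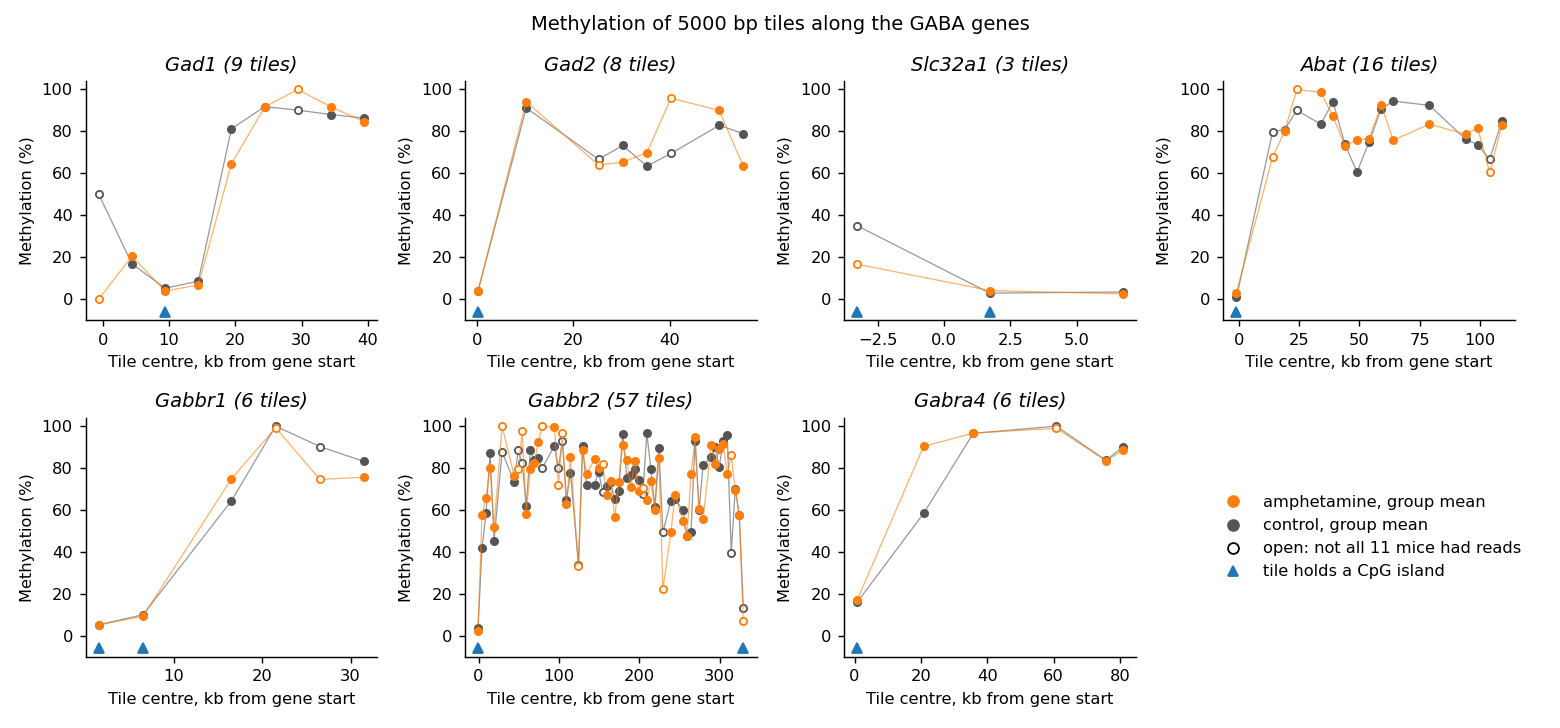
Mean methylation in percent of each 5000 bp tile by its distance in kb from the start of the gene row, in amphetamine-exposed mice (orange) and controls (grey), with open points where not all 11 mice had reads and triangles under tiles that hold a CpG island. Tiles with an island had medians of 4.61% in exposed mice and 5.25% in controls, and the 95 others had 77.3% and 78.9%. The highest island tile in controls, upstream of Slc32a1, was at 35.0%. The Gad1 tiles on either side of its island tile were at 16.8% and 8.53% in controls.

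Between treatments, none of the 105 tiles passed an adjusted p-value of 0.05 (0.0185% of all 259187 tiles tested). An unadjusted p-value under 0.05 was reached by 6, or 1 in Gad2, 1 in Abat and 4 in Gabbr2, against 4.40% of all tiles. None of the 82 with reads in every mouse had groups apart (0.351%). The exposed group was higher at 49 and lower at 56, with a median difference of -0.217 points. Among those with reads in every mouse, 68 of 82 differed by less than 10 points.

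The Abat tile among these (chr16:8560001-8565000, intronic) ranged from 66.7% to 82.4% in exposed mice (mean 76.1%) and from 50.0% to 71.4% in controls (mean 60.6%). The ranges overlapped between 66.7% and 71.4%. The difference was 15.5 points (95% interval 6.71 to 24.3, adjusted p = 0.965). In the last Gad2 tile that was measured (chr2:22675001-22680000, intronic), short of the gene's end, the order was opposite. It ran from 53.5% to 70.1% in exposed mice (mean 63.3%) and from 66.5% to 91.9% in controls (mean 78.9%). This difference of -15.6 points had an interval of -27.9 to -3.35 (adjusted p = 0.965).

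The 4 Gabbr2 tiles went in both directions. Higher in the exposed group were the intronic tiles chr4:46985001-46990000, with 57.8% against 41.8%, and chr4:46725001-46730000, with 77.2% against 49.6%. Lower in it were chr4:46710001-46715000, with 55.6% against 81.3%, and chr4:46810001-46815000, with 91.1% against 96.4%. Their adjusted p-values were all 0.965. The first of them lies beside the start tile and ranged from 42.7% to 75.7% in exposed mice and from 34.4% to 54.3% in controls, at equal coverage (71.6 and 71.0). At chr4:46725001-46730000, exposed mice ranged from 66.7% to 95.0% and controls from 0% to 70.4%. The lowest coverage of a mouse there was 1.

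In each gene the tile with the widest difference was also read, chosen on that value and with reads in every mouse. For Gabra4 (chr5:71635001-71640000) it was 90.3% in exposed and 58.3% in control mice, but controls ran from 0% to 100% at a coverage of only 16.3. For Gabbr2 (chr4:46780001-46785000) it was 64.7% against 96.6%, with exposed mice from 0% to 96.1%. Likewise Abat (chr16:8575001-8580000) had 75.8%, from 0% to 100%, against 94.4%. Gad1 (chr2:70570001-70575000), next after those low tiles, had 64.5%, from 34.7% to 84.6%, against 81.2%, from 66.5% to 100%. Gabbr1 (chr17:37060001-37065000) had 74.9% against 64.4%, and Slc32a1 had 4.09% against 2.86% over the gene. These differences had intervals that included 0, and the Gad2 tile, already given, was the exception.

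Between females and males, no promoter of the 6 was called either. None passed an adjusted p-value of 0.05 (0.564% of all 24293 promoters tested) or an unadjusted p-value under 0.05 (6.07%), and no promoter had the sexes apart (1.55%). Gad2 was at 10.1% in females and 14.4% in males, each with a wide range (0% to 33.7% and 2.78% to 27.2%). The highest Gad2 promoter was that of a control female and the highest in the exposed group was that of a male. Slc32a1 was at 3.83% and 3.27%, Abat at 2.30% and 1.29%, Gabbr1 at 2.48% and 2.23%, Gabbr2 at 1.57% and 1.15%, and Gabra4 at 1.40% and 0.815%.

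Over whole genes, Gad2 and Gabra4 came closest to a difference between the sexes. Gad2 ranged from 27.9% to 31.8% in females (mean 29.5%) and from 29.9% to 38.4% in males (mean 34.6%). The male with the highest level was a control, and the female with the lowest was exposed to amphetamine. The difference was -5.11 points (95% interval -8.85 to -1.37, adjusted p = 0.545), at a coverage of 1181 and 1164. Gabra4 ranged from 47.9% to 64.6% in females (mean 55.4%) and from 43.9% to 51.7% in males (mean 47.1%), a difference of 8.35 points (95% interval 0.437 to 16.3, adjusted p = 0.740). These 2 of 7 genes had unadjusted p-values under 0.05, against 6.50% of all genes. None passed after adjustment, against 0.373% of all 25721 tested, and none had the sexes apart, against 1.03%.

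The other 5 genes differed by less than 2 points, and all were lower in females, as were 45.8% of all genes tested. Slc32a1 was at 1.58% and 3.40%, Abat at 67.3% and 68.7%, Gad1 at 24.0% and 24.5%, Gabbr1 at 14.9% and 15.3%, and Gabbr2 at 60.4% and 60.9%. With 1 mouse left out, the sign of the difference turned for Gad1, Abat, Gabbr1 and Gabbr2. Gad2 kept between -6.30 and -4.17 points and Gabra4 between 6.51 and 9.85 points. All 6 tiles of Gabra4 were higher in females, by 1.05 to 18.6 points, with the widest at the tile where both sexes ran from 0% to 100%. Of all tiles, 54.1% were higher in females. The Gabra4 tiles share reads with its gene row and are not separate evidence for the difference there.

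**Figure D4:**
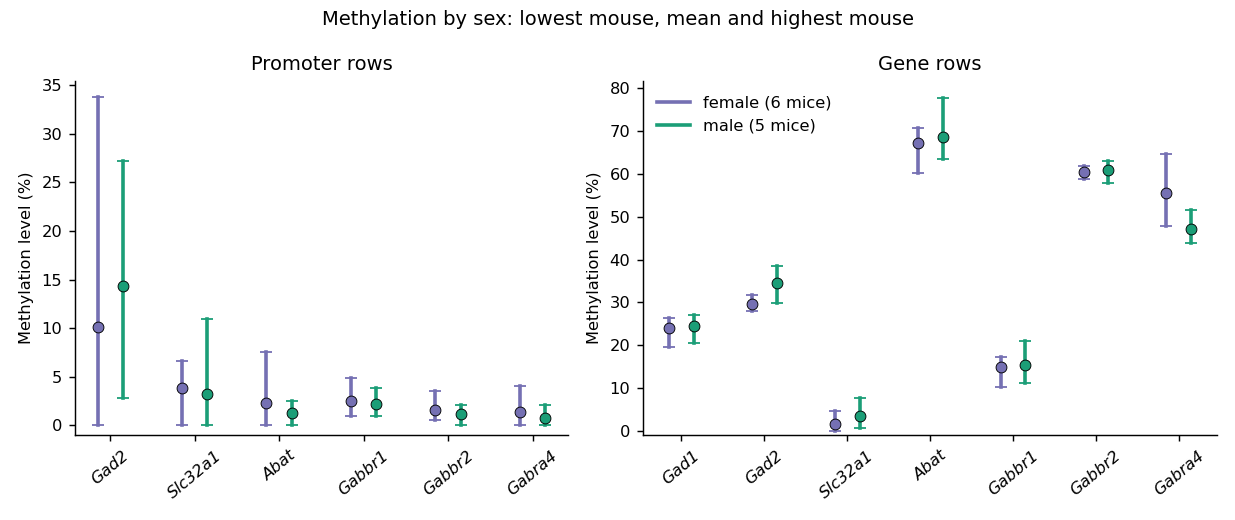
Methylation level in percent at the 6 promoter rows (left) and 7 gene rows (right) in females (purple, 6 mice) and males (green, 5 mice). Points are group means and bars run from the lowest to the highest mouse; the gene rows of Gad2 (29.5% and 34.6%) and Gabra4 (55.4% and 47.1%) were furthest apart, and their bars still overlapped.

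None of the 11 islands was called between the sexes by limma, with 0 past an adjusted p-value of 0.05 (1.09% of all 14820 islands tested), 0 with an unadjusted p-value under 0.05 (6.65%) and 0 with the sexes apart (1.91%). Their differences lay between -2.68 and 6.19 points. The last Slc32a1 island (chr2:158613843-158614993) had no methylated reads in any of the 6 females, while males ranged from 0% to 10.8% with a mean of 2.68%.

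A single tile was called between the sexes, an intronic tile of Gabbr2 at chr4:46865001-46870000. It stood at 68.4% to 100% in females (mean 89.5%) and at 0% in all males with reads, a difference of 89.5 points (95% interval 72.3 to 106.6, adjusted p = 0.0121). It had reads in only 3 of 6 females and all 5 males, at a mean coverage of 7.0 and 11.8, and no mouse had more than 19. The male SD of 0 entered the test as deposited. In the treatment comparison the same tile ran from 0% to 100% in both groups, with means of 33.3% and 33.7%. It was the only 1 of 105 tiles called, against 0.0760% of all 258011 tiles. A coverage of at least 10 in both groups, reads in all 11 mice or an SD above 0 in both groups each took it out of the test, as did treatment as covariate, fitted only where all 11 mice had reads, and without variance shrinkage its adjusted p-value was 0.0606.

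Unadjusted p-values under 0.05 between the sexes were found at 6 tiles, against 5.59% of all tiles, and none of the 82 tiles with reads in every mouse had the sexes apart (0.626%). Beside the called tile they included 2 of Gad1, 1 of Abat and 2 more of Gabbr2. At Gad1, chr2:70575001-70580000 was at 87.2% in females and 97.1% in males, whereas chr2:70585001-70590000, 10 kb further on, was at 97.5% and 80.4%. The Abat tile (chr16:8550001-8555000) was at 96.1% and 85.0%. The Gabbr2 tiles chr4:46730001-46735000, at 42.0% and 54.2%, and chr4:46745001-46750000, at 57.5% and 76.4%, were both lower in females. The smallest adjusted p-value among these 5 was 0.838. The widest differences in the remaining genes, chosen on that value, were 62.4% in females and 71.0% in males for Gad2 (chr2:22655001-22660000), 84.5% and 74.0% for Gabbr1 (chr17:37075001-37080000) and 2.08% and 4.11% for Slc32a1 (chr2:158615001-158620000). For Gabbr2, a tile 9.4 kb past the start (chr4:46980001-46985000) had 74.7% and 46.2%.

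A further 33 genes of the GABA pathway were read from the same tables. They comprised 18 subunits of ionotropic GABA receptors, 4 plasma membrane transporters, 5 enzymes of GABA and glutamate metabolism and 6 scaffold or auxiliary proteins. All had a gene row and 27 had a promoter row. In controls, promoters ranged from 0% at Gabarap, which encodes a receptor-associated trafficking protein, to 95.0% at the betaine and GABA transporter gene Slc6a12, with a median of 6.59%. Between treatments, none of the 27 promoters and none of the 33 genes was called. Unadjusted p-values under 0.05 were found for 2 of 27 promoters (4.11% of all promoters) and 4 of 33 genes (4.38% of all genes). No promoter or gene had groups apart (0.395% and 0.312% of all).

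Gabrg1, a γ subunit gene in the same chromosome 5 cluster as Gabra4, was the one subunit gene with both rows among these. Its promoter was at 17.9% in exposed mice and 14.3% in controls (95% interval of the difference 0.116 to 7.07 points) and its gene at 83.4% and 80.5%. Gphn, which encodes the scaffold protein gephyrin, had lower means in both rows, with 1.19% against 3.98% at the promoter and 64.1% against 68.4% over the gene. Gabarap stood at 10.9% against 5.16% over the gene, and Gabra5 at 20.0% against 17.0%. The adjusted p-value was 0.958 for both promoters and 0.984 for the 4 genes.

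Between the sexes, 2 of 27 promoters were called, against 0.564% of all promoters, and both belonged to X-linked subunit genes. Of all promoters, 137 were called between the sexes, and 3 when chromosomes X and Y were left out. The share among X-linked promoters alone was not computed. The Gabrq promoter ranged from 37.0% to 80.0% in females (mean 55.6%) and from 0% to 6.14% in males (mean 2.51%), with adjusted p = 0.00721. The Gabre promoter ranged from 26.5% to 57.4% in females (mean 38.3%) and from 0% to 5.71% in males (mean 1.25%), with adjusted p = 0.00965. In both the sexes were apart in every mouse (1.55% of all promoters), which was not seen at any promoter of the 7 genes, all of them autosomal. The Gabrq gene row was apart as well, at 66.3% and 31.3% (adjusted p = 0.0852), and the Gabre gene row was at 67.0% and 55.3%. Of autosomal genes, Gabrb1 had a promoter at 10.6% in females and 36.4% in males at a coverage of 41.5 and 37.8. The promoter of Glul, the glutamine synthetase gene, was at 3.19% and 0.686%, and the Gabrr2 gene was at 90.7% and 80.0%. None of these last was called.

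Depth differed between the groups and is set beside these values. Median coverage of a promoter was 230.2 in exposed and 184.2 in control mice, and 216.8 in females and 190.4 in males. At the 6 promoters and the 7 genes it was higher in the exposed group each time, with a median ratio of 1.26 and 1.22, against 1.24 over all promoters and 1.24 over all genes. Its part in the differences was not tested. The labelled tissue could not be checked firmly from methylation. Of 10 acinar marker genes, 6 had a promoter row, at 46.7% to 90.3% in controls. Of 6 endocrine genes, 3 had one, of which Pdx1 was at 3.25%, Sst at 1.71% and Gcg at 90.0%, and 4 of 8 marker genes of other tissues spread from 2.88% to 78.0%. Each value is an average over all cells of the pancreas, so that a change in some cells and a change in the share of cell types cannot be told apart.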

How the data were processed

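RRBS data of pancreas from 11 mice were used as 8 deposited tables, 4 for each of 2 comparisons (promoters, genes, CpG islands, and tiles of 5000 bp), over the same mice. The authors cut DNA with MspI and TaqI, used the NextFlow methylseq pipeline with Bismark and mm10 for single-end reads, and obtained region values with RnBeads. A promoter row begins 1500 bp before a gene start and ends 500 bp after it. The version of Bismark is not given in the sources used here.

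Methylation was deposited as a fraction, the mean of those mice in a group that had reads, together with its SD, lowest and highest mouse, and is printed as a percent. Coverage was deposited as a signal, the mean over a group's mice without correction for depth, and was read here as summed over CpGs, which is not stated. The deposited differences, log2 quotients, p-values, adjusted p-values and ranks were not used.

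The limma test (limma 3.58.1, R 4.3.3) was rebuilt from group means, SDs and numbers of mice over all regions of a table with reads in at least 2 mice per group. It was two-sided, without covariate, with variances shrunk by limma (zero variances offset) and Benjamini-Hochberg adjustment over the table. A region was called at an adjusted p-value under 0.05. The steps were tested on simulated data. Groups were called apart where their ranges did not overlap, among regions with reads in all mice. Groups followed the labels, and p-values measure the spread between these mice.

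Islands and tiles were assigned to a gene when they overlapped its promoter or gene row by at least 1 bp. Tiles are named with an unadjusted p-value under 0.05 and, per gene, for the widest difference. Of the 33 further genes, those with an unadjusted p-value under 0.05 or groups apart are named, with the highest and lowest promoter, except 1 that is not reported here. The members and lists were chosen with earlier results of these data known. Sequence and exons came from GRCm38.p6, the assembly of mm10, whose chromosomes hold all tile positions, with GENCODE annotation.

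Alternatives were filters on coverage, on mice with reads and on SD, leaving out chromosomes X and Y, no shrinkage, a trend with coverage, a logit scale (offset 0.01), the other factor as covariate, leaving out 1 mouse and another region over the gene start. The mouse left out was the lowest or the highest of a group. Depth per mouse, effects within a sex, interactions and a rule for outlier mice need values per mouse and were not analysed here. Python 3.11.15 with pandas 2.3.3, numpy 2.4.6, scipy 1.17.1 and pysam 0.24.0 was used.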

Additional observations from a re-analysis of the deposited data

How the results depend on the processing

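For promoters, genes and islands in both comparisons, and for tiles between treatments, the count of the 7 genes' regions called was 0 under each alternative run. For tiles between the sexes it was 1, and 0 with a coverage of at least 10, with reads in all 11 mice, with an SD above 0, without shrinkage and with treatment as covariate. Counting regions with reads in at least 2 mice per group in place of all mice gave 1 region with groups apart, this same tile (added after seeing the data). Leaving out 1 of its mice gave 84.2 to 100 points and an adjusted p-value of at most 0.0489 (also added). Over all regions, counts called between treatments moved from 4 to between 0 and 67 for promoters, from 3 to between 0 and 25 for genes, from 2 to between 0 and 20 for islands and from 48 to between 0 and 872 for tiles, the highest on the logit scale. Between the sexes, leaving out X and Y took promoters from 137 to 3.

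With 1 mouse left out, the amphetamine minus control difference ran from -6.72 to 1.53 points for the Gad2 promoter, -0.717 to 0.0320 for the Gabbr2 promoter, -0.0401 to 3.46 for the Abat gene and -0.602 to 2.08 for the Gabbr1 gene. The female minus male difference ran from -0.262 to 2.47 for the Slc32a1 promoter, -0.0385 to 1.46 for the Abat promoter, -0.228 to 0.660 for the Gabbr1 promoter, -1.46 to 0.402 for the Gad1 gene, -2.75 to 0.847 for the Abat gene, -1.50 to 0.979 for the Gabbr1 gene and -1.21 to 0.0659 for the Gabbr2 gene. With an island or tile over the start in place of the promoter, the treatment difference became 1.97 points for Gad2, 0.185 for Slc32a1 and -0.163 for Gabbr1, and the sex difference became -0.185 for Slc32a1 and -1.60 for Gabbr1. The cause was not tested. No other difference turned among the alternatives run.

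Values per mouse were not analysed here. Low coverage limited tiles most, with 10 of 105 under a mean of 10 in a treatment group. No paired analysis was possible because the labels link no animals across groups by litter or batch, and the tables hold no columns per mouse.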
